A study of Mus musculus with 10 samples.

Results

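The thioredoxin system was followed in the dorsal root ganglia of mice given oxaliplatin; these ganglia, next to the spinal cord, hold the cell bodies of sensory neurons. The 10 genes code for 2 thioredoxins (Txn1 and Txn2), 2 thioredoxin reductases (Txnrd1 and Txnrd2), 5 peroxiredoxins (Prdx1, Prdx2, Prdx3, Prdx5 and Prdx6) and sulfiredoxin (Srxn1). Their rows were found by gene symbol. The symbols matched 11 of the 40481 Ensembl gene IDs in the count table. Txnrd2 was listed under 2 IDs, of which ENSMUSG00000099282 had 0 counts in every library, so 10 genes could be measured. All 10 passed the filter on low counts, with 1179 to 30409 raw counts per gene and library.

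RNA came from the ganglia of C57BL/6 mice in 2 groups of 5 libraries each. The oxaliplatin group carries a dose label of 10 mg/kg and, in the design text, a treatment of 8 weeks, with no dosing schedule in the sources used here. The control group is labelled vehicle, with the carrier not named, and age and sex are not given for either group. In both groups, RNA had to pass an integrity threshold before sequencing. Neither group carries a transgene or deletion in its labels, and nothing states in words that each library is a separate animal. The p-values therefore measure only the variation among these libraries, which may be technical. The study set out to find which genes of the ganglia change with the platinum drug, and its title names Txnip, the protein that binds and inhibits thioredoxin.

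Cells remove hydrogen peroxide with peroxiredoxins, which are oxidised at a reactive cysteine as they do so. Thioredoxin reduces most of them again, and thioredoxin reductase, a selenium-containing enzyme, reduces thioredoxin at the cost of NADPH. Txn1 and Txnrd1 serve the cytosol and nucleus, while Txn2, Txnrd2 and Prdx3 serve mitochondria. Sulfiredoxin rescues peroxiredoxins that have been oxidised too far. Several of these genes, Srxn1, Txnrd1 and Prdx1 among them, are known targets of the transcription factor NRF2, which binds the antioxidant response element. Sensory neurons hold many mitochondria and send long axons, and the cell bodies in the ganglion lie outside the blood-nerve barrier, where platinum drugs reach them.

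The promoters of 4 of the genes are shown: Txn1 was the gene called lower, and Srxn1, Txnrd1 and Prdx1 are textbook NRF2 targets. Each sequence runs 5′ to 3′ on the gene's own strand, from 250 bases before to 50 bases after a RefSeq start site (GRCm38.p6). Capitals mark the core of the antioxidant response element, searched as TGACNNNGC and TGAGNNNGC on both strands, where matches of the 2 forms could overlap. The windows lie at chr4:57956362-57956661 (minus strand) for Txn1, chr2:152105274-152105573 (plus) for Srxn1, chr10:82858956-82859255 (plus) for Txnrd1 and chr4:116685349-116685648 (plus) for Prdx1.
Txn1: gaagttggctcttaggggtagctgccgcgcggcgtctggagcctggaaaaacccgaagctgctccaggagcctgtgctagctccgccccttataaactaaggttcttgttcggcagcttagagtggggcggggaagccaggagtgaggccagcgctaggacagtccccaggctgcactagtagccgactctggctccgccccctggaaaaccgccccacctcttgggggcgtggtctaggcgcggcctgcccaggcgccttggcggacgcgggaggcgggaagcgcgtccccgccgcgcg
Srxn1: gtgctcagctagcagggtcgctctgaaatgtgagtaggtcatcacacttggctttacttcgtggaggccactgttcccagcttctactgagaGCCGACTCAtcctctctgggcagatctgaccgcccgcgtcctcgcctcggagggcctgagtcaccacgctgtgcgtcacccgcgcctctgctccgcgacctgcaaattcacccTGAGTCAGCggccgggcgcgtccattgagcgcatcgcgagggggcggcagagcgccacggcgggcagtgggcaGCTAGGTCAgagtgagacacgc
Txnrd1: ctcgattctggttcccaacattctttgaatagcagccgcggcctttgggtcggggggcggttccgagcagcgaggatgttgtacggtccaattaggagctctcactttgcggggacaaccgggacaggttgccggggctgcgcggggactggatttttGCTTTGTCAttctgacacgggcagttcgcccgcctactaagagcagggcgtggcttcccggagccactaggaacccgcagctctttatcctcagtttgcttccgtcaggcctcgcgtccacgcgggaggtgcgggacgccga
Prdx1: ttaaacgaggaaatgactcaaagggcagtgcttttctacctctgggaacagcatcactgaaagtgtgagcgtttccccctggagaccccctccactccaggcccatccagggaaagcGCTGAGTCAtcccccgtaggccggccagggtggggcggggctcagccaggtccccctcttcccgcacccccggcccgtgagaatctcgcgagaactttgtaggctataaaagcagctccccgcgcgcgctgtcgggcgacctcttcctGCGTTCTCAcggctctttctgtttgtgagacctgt

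Srxn1 held 3 matches, with first bases at -158, -45 and 29 from the start site. Prdx1 held 2, at -133 and 16. The Txnrd1 window shown held 1, at -92, and the other 2 Txnrd1 windows of RefSeq held 0. Txn1 held 0, which says only that these letters are not in this window. The table held 11 windows for 9 of the genes, of which 4 windows held a match (that of Txn2 was the fourth), and 27.8% of all 32851 promoter windows of the same length did. A match of letters is not evidence of a bound site. Prdx6 had no window in the table and is not shown.

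Txn1 (ENSMUSG00000028367), the cytosolic thioredoxin, was the 1 gene of the 10 past the threshold, an adjusted p below 0.05 in the edgeR test. It stood at 361, 397, 375, 401 and 386 CPM (read counts scaled to a common library size with TMM factors) in oxaliplatin replicates 1 to 5, against 463, 415, 483, 441 and 441 CPM in vehicle replicates 1 to 5. The groups did not overlap: every oxaliplatin library lay below every vehicle library. The means were 384 ± 16.6 CPM after oxaliplatin and 449 ± 25.7 CPM after vehicle (SD, n = 5 each). Txn1 fell by 0.22 ± 0.05 on the log2 scale (SE), to 0.856 of the vehicle level (edgeR's quasi-likelihood test, adjusted p = 0.0438 by Benjamini-Hochberg over 18401 genes). Over all these genes 0.772% were called lower and 1.27% higher, and groups without overlap were found on the lower side for 1.77% and on the higher side for 2.25%.

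That call was lost in most fits that left out 1 library, while the size of the fall changed little. The call held without oxaliplatin replicate 2 or vehicle replicate 2 and was lost without any of the other 8 libraries. The edgeR adjusted p ran from 0.0305 to 0.126 and the log2 fold change from -0.25 to -0.19. Calls over all tested genes moved as well, with 34 to 251 genes lower in these 10 fits, against 142 with all libraries. Without oxaliplatin replicate 4, where 34 genes were called lower, Txn1 was at -0.24 (edgeR adjusted p = 0.0797). Neuron markers summed to 13060 to 14570 CPM over 7 of 7 genes after oxaliplatin and to 14220 to 16710 CPM after vehicle. By gene, 4 of these 7 markers had a log2 fold change below 0, at a median of -0.03, and 0 passed the threshold. With the mean of their log2 CPM as a covariate Txn1 was at -0.16 (edgeR adjusted p = 0.277). That covariate left 41 genes higher and 44 lower over all tested genes, against 234 and 142 without it. In bulk tissue, fewer cells of a type and less RNA per cell cannot be told apart. Nuclear-retained RNAs, 6 of 6 genes, summed to 8805 to 11260 CPM after oxaliplatin and to 7714 to 8674 CPM after vehicle. These sums did not overlap. By gene, 2 of the 6 were called higher and 1 had groups without overlap, at a median log2 fold change of 0.285. The part of these RNAs in the Txn1 result was not tested. With library totals alone as scaling Txn1 was at -0.19 (edgeR adjusted p = 0.060). The processed pseudogene Txn-ps1 had 121 to 188 counts per library beside 19886 to 27009 for Txn1.

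Txn2 (ENSMUSG00000005354), the mitochondrial thioredoxin, stood at 216, 238, 225, 213 and 227 CPM in oxaliplatin replicates 1 to 5, against 232, 224, 287, 255 and 278 CPM in vehicle replicates 1 to 5. Vehicle replicates 3, 4 and 5 lay above every oxaliplatin library, while vehicle replicates 1 and 2 lay among them. The log2 fold change was -0.19 ± 0.07 (SE) with a 95% interval from -0.34 to -0.04, and it did not pass the threshold (edgeR adjusted p = 0.182). It passed at -0.30 with the Schwann cell marker mean as a covariate (edgeR adjusted p = 0.0242). The Schwann cell list, 7 of 7 genes, summed to 8274 to 11200 CPM after oxaliplatin and 7540 to 10290 CPM after vehicle.

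**Figure D1:**
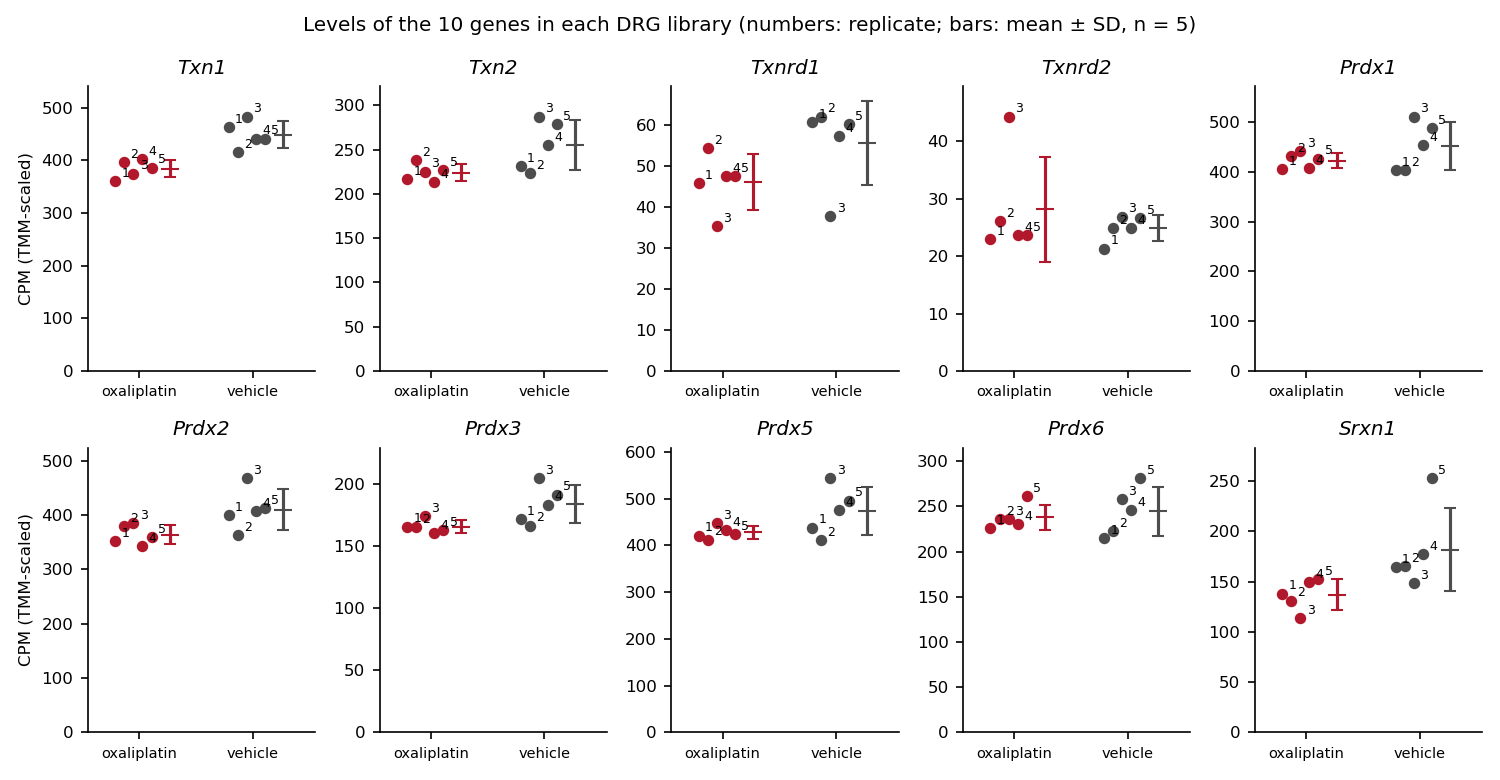
Level of each of the 10 genes in TMM-scaled CPM (vertical axis, from 0) in the 5 oxaliplatin libraries (left, red) and the 5 vehicle libraries (right, grey), with replicate numbers beside the points and the mean ± SD beside each group. Txn1 has no overlap between groups, Txnrd2 has 1 high oxaliplatin library (replicate 3), Srxn1 has 1 high vehicle library (replicate 5), and Txnrd1 is low in both libraries numbered 3.

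The reductases differed from the thioredoxins in how much single libraries weighed. Txnrd1 (ENSMUSG00000020250), the cytosolic reductase, stood at 45.9, 54.3, 35.3, 47.4 and 47.5 CPM in oxaliplatin replicates 1 to 5, against 60.7, 62.0, 37.7, 57.2 and 60.1 CPM in vehicle replicates 1 to 5. Both libraries numbered 3 were the lowest of their group, and the other 4 vehicle libraries lay above every oxaliplatin library. Its log2 fold change was -0.27 ± 0.14 (SE), with an interval from -0.57 to 0.03 (edgeR adjusted p = 0.360). Without both libraries numbered 3, an alternative chosen after seeing the data, it was at -0.29 (edgeR adjusted p = 0.0635). With the replicate number as a block it passed at -0.26 (edgeR adjusted p = 0.0387), although nothing states that the numbers pair the libraries.

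Txnrd2 (ENSMUSG00000075704), the mitochondrial reductase, was the 1 gene of the 10 with a log2 fold change above 0, at 0.17 ± 0.17 (SE, interval -0.19 to 0.54, edgeR adjusted p = 0.671). A single library set that value. Txnrd2 stood at 22.9, 26.0, 44.3, 23.7 and 23.7 CPM in oxaliplatin replicates 1 to 5, against 21.3, 24.9, 26.9, 24.8 and 26.6 CPM in vehicle replicates 1 to 5. Without oxaliplatin replicate 3 the remaining 4 libraries averaged 24.1 ± 1.35 CPM and the log2 fold change stood at -0.05 (edgeR adjusted p = 0.840).

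In oxaliplatin replicate 3 Txnrd2 was 1.65 times its level in the next highest library. Of 13139 genes with a mean of at least 2 CPM, 3 reached such a ratio in that library: Txnrd2, the haemoglobin gene Hbb-bt and the ephrin receptor gene Epha7 (the last 2 named after their values were seen). Erythroid markers, 6 of 6 genes, summed to 696 CPM in oxaliplatin replicate 3, to 9.62 to 181 CPM in the other oxaliplatin libraries and to 138 to 439 CPM after vehicle. With the erythroid mean as a covariate Txnrd2 was at 0.32 (edgeR adjusted p = 0.299).

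Each of the 5 peroxiredoxins was at a log2 fold change below 0, and 0 of them passed the threshold. Prdx2 (ENSMUSG00000005161), a cytosolic enzyme also abundant in red cells, stood at 353, 379, 385, 343 and 360 CPM in oxaliplatin replicates 1 to 5, against 400, 362, 468, 407 and 414 CPM in vehicle replicates 1 to 5. A total of 4 vehicle libraries lay above every oxaliplatin library, and vehicle replicate 2 did not. Its log2 difference was -0.17 ± 0.06 (SE, edgeR adjusted p = 0.188), and -0.15 with the erythroid mean as a covariate (edgeR adjusted p = 0.361). Prdx2 shares 5.8% of its annotated exon bases with Rnaseh2a and 5.7% with Junb, both on the opposite strand.

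Prdx3 (ENSMUSG00000024997), the main peroxiredoxin of mitochondria, ran from 160 to 174 CPM after oxaliplatin and from 167 to 205 CPM after vehicle. Of its oxaliplatin libraries 4 lay below every vehicle library, at a log2 fold change of -0.15 ± 0.06 (SE, edgeR adjusted p = 0.235). Prdx5 (ENSMUSG00000024953), found in mitochondria, peroxisomes and cytosol, ran from 412 to 448 CPM after oxaliplatin and from 411 to 544 CPM after vehicle (-0.14 ± 0.07, edgeR adjusted p = 0.299). It shares 19.1% of its annotated exon bases with Trmt112 on the opposite strand, and without a statement on strand the reads there cannot be told apart.

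Prdx1 (ENSMUSG00000028691), the abundant cytosolic form, ran from 406 to 441 CPM after oxaliplatin and from 403 to 511 CPM after vehicle. Its difference was -0.10 ± 0.07 (log2, SE) with an interval from -0.24 to 0.05 (edgeR adjusted p = 0.516). Prdx6 (ENSMUSG00000026701), which reduces oxidised phospholipids as well as peroxide, ran from 226 to 262 CPM after oxaliplatin and from 215 to 281 CPM after vehicle. Its difference was the smallest of the 10, at -0.04 ± 0.07 (log2, SE) with an interval from -0.19 to 0.11 (edgeR adjusted p = 0.850), and it was 0.02 without vehicle replicate 5. Its near copy Prdx6b had 0 to 20 counts per library.

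Srxn1 (ENSMUSG00000032802), the enzyme that repairs overoxidised peroxiredoxins, had the lowest log2 fold change of the 10, at -0.41 ± 0.14 (SE, interval -0.71 to -0.11). It did not pass the threshold in the edgeR test (adjusted p = 0.167), and DESeq2 gave an adjusted p of 0.0378 at -0.41. Srxn1 stood at 138, 131, 114, 150 and 153 CPM in oxaliplatin replicates 1 to 5, against 164, 166, 149, 177 and 253 CPM in vehicle replicates 1 to 5. The groups overlapped only in that oxaliplatin replicates 4 and 5 lay above vehicle replicate 3. Without vehicle replicate 5 the other 4 vehicle libraries averaged 164 ± 11.8 CPM, at a log2 fold change of -0.26 (edgeR adjusted p = 0.143).

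**Figure D2:**
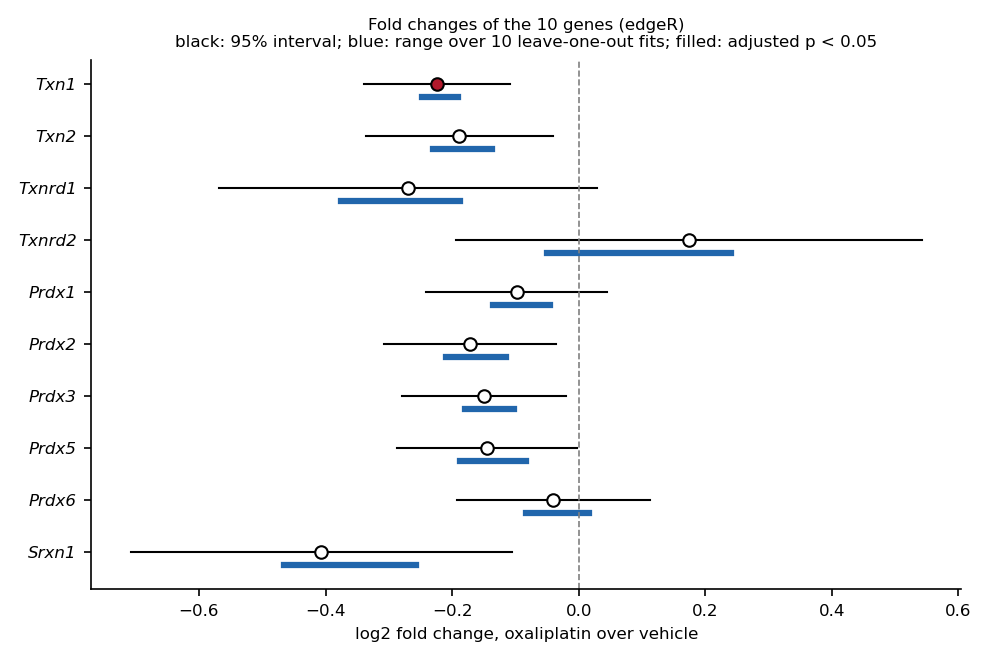
Log2 fold change of each gene, oxaliplatin over vehicle (horizontal axis), with its 95% interval (black line) and the range over the 10 fits that each leave out 1 library (blue bar). Txn1, the filled point at -0.22, is the 1 gene past the adjusted p threshold; the intervals of Txnrd1, Txnrd2, Prdx1 and Prdx6 cross 0.

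Across the 10 genes, 1 was called lower and 0 higher. At an unadjusted p below 0.05 the counts were 6 lower and 0 higher, and over all tested genes 7.80% were lower and 8.51% higher by that rule. DESeq2 called 2 lower (Txn1 and Srxn1) and 0 higher, where it called 2.22% of all genes lower and 2.75% higher. The limma voom fit called 1 lower (Txn1) and 0 higher, where it called 1.98% and 2.39% of all genes. The log2 fold change was below 0 for 9 of the 10, and for 49% of all tested genes. The median was -0.16 for the 10 genes and 0.01 over all tested genes. The sign held for 9 of 10 with RLE factors and with library totals alone. The 10 genes were measured in the same libraries, so their directions are not separate observations. Among the 6 with a mainly cytosolic product the median was -0.20, and among Txn2, Txnrd2, Prdx3 and Prdx5 it was -0.15.

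The same few vehicle libraries were high for many of the genes. Vehicle replicate 3 held the highest value of 6 genes (Txn1, Txn2, Prdx1, Prdx2, Prdx3 and Prdx5), vehicle replicate 5 of 2 (Prdx6 and Srxn1), and vehicle replicate 5 lay above the gene's mean for all 10. Oxaliplatin replicates 1 and 4 lay above it for 0 of 10. These counts stand without the share over all tested genes, so they do not set the 10 genes apart from other genes. The SD of CPM was larger after vehicle than after oxaliplatin for 9 of the 10, Txnrd2 being the exception. Vehicle replicate 3 also had the highest mitochondrial share of counts (1.76%, against 1.34 to 1.61% after oxaliplatin and 1.39 to 1.58% in the other vehicle libraries), the highest neuron marker sum (16710 CPM) and the lowest sum of nuclear-retained RNAs (7714 CPM). Their part in the high levels there was not tested. Without vehicle replicate 3 the median of the 10 genes was -0.11.

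**Figure D3:**
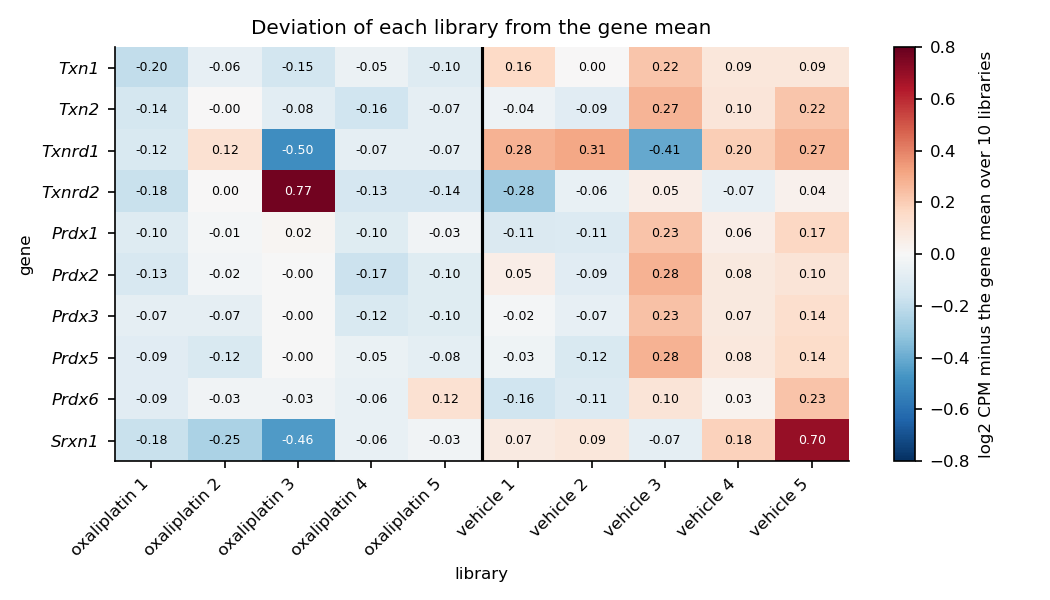
Deviation of log2 CPM from the gene's mean over the 10 libraries (colour and printed value), with genes in rows and libraries in columns, oxaliplatin left of the black line and vehicle right of it. Vehicle replicate 3 is high for Txn1, Txn2, Prdx1, Prdx2, Prdx3 and Prdx5, and the extremes are Txnrd2 in oxaliplatin replicate 3 (0.77) and Srxn1 in vehicle replicate 5 (0.70).

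The genes differed in how far their libraries spread. The SD of log2 CPM within groups had a median of 0.118 over the 10 genes and of 0.213 over all tested genes. Txn1 had the lowest SD, 0.073, and Txnrd2 the highest, 0.298. Per kilobase of annotated exon (GENCODE M21) the levels were in the order Txn1, Prdx5, Prdx1, Prdx2, Prdx3, Txn2, Srxn1, Prdx6, Txnrd1 and Txnrd2. Txn1 stood at 365 ± 15.8 CPM per kilobase after oxaliplatin and 427 ± 24.4 after vehicle, and Prdx5, next in order, at 200 ± 6.34 and 221 ± 24.0 (SD, n = 5 each). Txnrd1 stood at 6.50 ± 0.964 CPM per kilobase after oxaliplatin and 7.84 ± 1.43 after vehicle, and Txnrd2 at 6.39 ± 2.07 and 5.66 ± 0.504. The order was the same in all 10 libraries from Txn1 down to Prdx3 and Txn2, while Txn2 and Srxn1, Srxn1 and Prdx6, and Txnrd1 and Txnrd2 changed places between libraries. The length was the union of exons over all annotated transcripts: 1051 bases for Txn1, 2139 for Prdx5 and 3043 for Prdx1. The order depends on that length. Without division by it, the means of Prdx5 (428 CPM after oxaliplatin, 473 after vehicle) and Prdx1 (422 and 452) lay above Txn1 (384 and 449). No source used here gives the annotation release behind the counts, so these levels are approximate.

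Genes with the most similar course were found by the root mean square difference of mean-centred log2 CPM over the 10 libraries, among 12274 genes with a mean of at least 2 CPM, leaving out predicted genes and clone names. For Txn1 they were Glo1, Nrn1 and Psmg3 (0.0517 to 0.0539), with Prdx2 the closest of the other 9 genes at 0.0814 and rank 163. For Txn2 they were Banf1, Alg14 and Trappc4 (0.0305 to 0.0369), with Prdx3 at 0.0539 and rank 48. For Srxn1 they were Mtus2, Pkib and Syt12 (0.127 to 0.133), with Txnrd1, the closest of the other 9, at 0.232 and rank 715. The difference is not scaled to a gene's own spread, and the SD within groups was 0.241 for Srxn1 and 0.073 for Txn1. Prdx3 was the closest of the other 9 genes to Prdx1, Prdx2, Prdx5 and Txn2, at rank 8 for both Prdx2 and Prdx5 and at rank 42 for Prdx1.

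Txnip, the inhibitor that binds reduced thioredoxin, stood at 89.3, 41.3, 71.1, 112 and 113 CPM in oxaliplatin replicates 1 to 5, against 33.7, 41.7, 48.3, 31.7 and 38.2 CPM in vehicle replicates 1 to 5. All oxaliplatin libraries but replicate 2 lay above every vehicle library, at a log2 fold change of 1.14 ± 0.27 (SE) that did not pass (edgeR adjusted p = 0.0785). Txnip passed in 2 of 23 alternatives: without oxaliplatin replicate 2 (1.31, edgeR adjusted p = 0.00201) and in DESeq2 (adjusted p = 0.00241). It did not pass in limma voom (adjusted p = 0.0549) or with the replicate block (edgeR adjusted p = 0.213). Leaving out 1 library gave log2 fold changes from 1.02 to 1.31, with edgeR adjusted p up to 0.185. There were 4.04, 9.60, 5.27, 3.60 and 3.43 Txn1 counts for each Txnip count in oxaliplatin replicates 1 to 5, against 13.7, 9.96, 10.0, 13.9 and 11.5 in vehicle replicates 1 to 5. This ratio did not overlap between the groups, although oxaliplatin replicate 2 lay near vehicle replicates 2 and 3. It joins both genes' differences and was not tested.

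A list of 8 related genes held Txnip, which is an alpha-arrestin, beside other thioredoxin-fold and peroxiredoxin genes. Of these 8 genes 0 passed the threshold, at a median of -0.08. At an unadjusted p below 0.05, 1 was higher (Txnip) and 1 lower, and DESeq2 gave the same counts. Txndc17, a small cytosolic thioredoxin relative, was at -0.29 ± 0.08 (SE, edgeR adjusted p = 0.0581). Of the 16 further NRF2 targets 1 was higher and 1 lower, at a median of -0.07. At an unadjusted p below 0.05 the list had 1 higher and 5 lower, in DESeq2 1 higher and 3 lower, and in limma voom 1 higher and 2 lower. Gstm1, a glutathione transferase, rose 1.37-fold, to 154 ± 23.3 CPM after oxaliplatin against 113 ± 12.5 CPM after vehicle (SD, n = 5 each, edgeR adjusted p = 0.0314). Hmox1, which degrades haem, fell by 0.31 ± 0.08 (log2, edgeR adjusted p = 0.0462), and Taldo1 of the pentose phosphate pathway, named after its value was seen, had groups without overlap on the lower side (-0.24, edgeR adjusted p = 0.0713). Gstm1 kept its call without oxaliplatin replicate 2, oxaliplatin replicate 3 or vehicle replicate 3 and lost it without any of the other 7 libraries (edgeR adjusted p up to 0.0972). Its call was also lost with 1 surrogate variable (edgeR adjusted p = 0.108) and with the Schwann cell or the neuron marker mean as a covariate (0.101 and 0.0577). Hmox1 kept its call only without oxaliplatin replicate 2 (edgeR adjusted p up to 0.147 without another library), and lost it with library totals alone (0.0682), 1 surrogate variable (0.0805) or the neuron mean (0.131). Gstm1 belongs to a multigene family whose members can share reads. The 8 genes for NRF2 and its regulators had 0 past the threshold (1 lower at an unadjusted p below 0.05, 0 by DESeq2), with Nfe2l2, which codes for NRF2, at -0.20 ± 0.07 (edgeR adjusted p = 0.177) and Sqstm1, whose product binds the NRF2 inhibitor KEAP1, at 0.11 ± 0.06 (edgeR adjusted p = 0.437).

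NADPH, the fuel of the reductases, is made by the enzymes of a list of 11 genes, of which 1 fell and 0 rose. Idh1, the cytosolic isocitrate dehydrogenase, stood at 214, 248, 225, 226 and 223 CPM in oxaliplatin replicates 1 to 5, against 263, 275, 276, 265 and 262 CPM in vehicle replicates 1 to 5. The groups did not overlap. Idh1 fell by 0.24 ± 0.05 (log2, edgeR adjusted p = 0.0282). That call held without oxaliplatin replicate 2 or vehicle replicate 2, 3 or 5 and was lost without any of the other 6 libraries (edgeR adjusted p up to 0.0908). It was lost with the neuron mean as well (edgeR adjusted p = 0.131). At an unadjusted p below 0.05 this list had 2 lower and 0 higher, and its median was -0.06.

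The parallel glutathione branch had 0 of 10 glutathione peroxidases and glutaredoxins past the threshold, with 2 lower at an unadjusted p below 0.05 and 1 lower in DESeq2. Glrx, a cytosolic glutaredoxin, was at -0.28 ± 0.08 (edgeR adjusted p = 0.103) and Gpx1, the main cytosolic glutathione peroxidase, at -0.24 ± 0.09 (edgeR adjusted p = 0.168). Superoxide dismutases and catalase had 0 of 5 (1 lower unadjusted, 0 in DESeq2), with the mitochondrial dismutase Sod2 at -0.14 ± 0.06 (edgeR adjusted p = 0.238) and catalase, Cat, at -0.10 ± 0.06 (edgeR adjusted p = 0.398). Methionine sulfoxide reductases, which also draw on thioredoxin, had 0 of 4 (1 higher and 1 lower unadjusted, 1 lower in DESeq2). Among them Msrb1 was at -0.27 ± 0.08 (edgeR adjusted p = 0.0835), and Msrb3 at 0.42 ± 0.17 (edgeR adjusted p = 0.233) with no overlap between its higher oxaliplatin and its lower vehicle libraries.

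The 7 genes of selenoprotein synthesis had 0 past the threshold and 0 at an unadjusted p below 0.05, with Trit1 at -0.14 ± 0.12 and Eefsec at 0.09 ± 0.08 (edgeR adjusted p = 0.617 and 0.668). The 16 further selenoproteins had 0 (1 higher and 3 lower unadjusted, 1 lower in DESeq2, 1 higher in limma voom). The plasma selenium carrier Selenop was at 0.23 ± 0.08 (edgeR adjusted p = 0.130), and passed in limma voom (adjusted p = 0.0363), without vehicle replicate 3 (0.31, edgeR adjusted p = 0.0213) and without both libraries numbered 3 (edgeR adjusted p = 0.0333). Among 6 genes whose products thioredoxin reduces or binds 0 passed (1 higher unadjusted, 1 higher in DESeq2), with the stress kinase Map3k6 at 0.53 ± 0.14 (edgeR adjusted p = 0.0589) and the repair nuclease Apex1 at -0.25 ± 0.12 (edgeR adjusted p = 0.323).

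**Figure D4:**
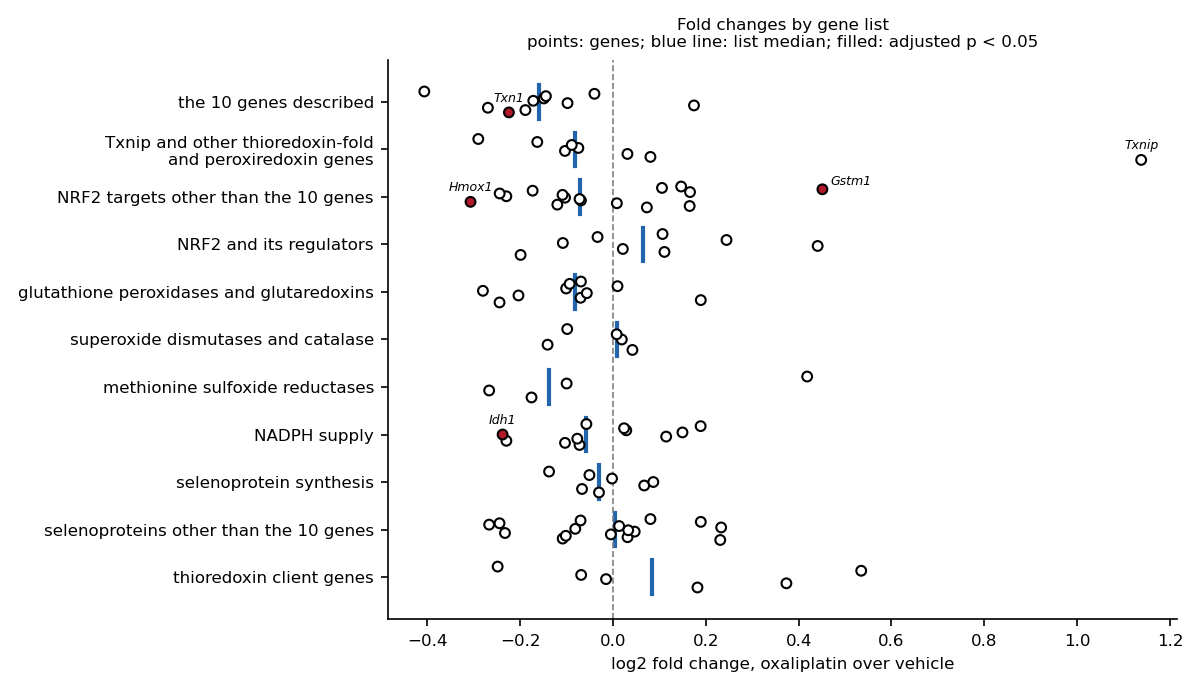
Log2 fold change, oxaliplatin over vehicle (horizontal axis), of every tested gene (points) in the 10 genes described and 10 further lists, with the list median as a blue line. Filled points passed the adjusted p threshold: Txn1, Hmox1 and Idh1 below 0 and Gstm1 above it; Txnip, at 1.14, did not.

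Library totals ran from 52963470 to 60984426 counts, and the 10 genes took 0.239 to 0.252% of them after oxaliplatin and 0.248 to 0.288% after vehicle. Over all 18401 tested genes 234 were called higher and 142 lower, a share of 62.2% higher that was 75.4% with library totals alone as scaling. Of the cell types whose markers were followed, endothelial genes, 6 of 6, summed to 62.8 to 72.8 CPM after oxaliplatin and 43.6 to 63.0 CPM after vehicle. Adipocyte genes were high in oxaliplatin replicate 1 (558 CPM, 4 of 6 tested), and lymphocyte genes, 3 of 6 tested, summed to 3.62 to 4.67 CPM after oxaliplatin and 5.02 to 6.61 CPM after vehicle. Skeletal muscle genes, 5 of 5, summed to 698 CPM in oxaliplatin replicate 1, to 7.68 to 20.8 CPM in the other 4 oxaliplatin libraries and to 90.8 to 460 CPM after vehicle. The part of these cells in the results was not tested.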

How the data were processed

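The authors deposited 1 table of raw read counts per Ensembl gene with a column for each of the 10 libraries. STAR 2.5.1a, Partek and DESeq2 are named, without roles, per the submitters' processing notes. A SMARTer kit was used on bead-purified total RNA, per the labels' protocols. The sources used here do not give build, annotation, strand or counting step. The table's 40757 rows hold 40481 IDs, and 276 repeated rows with identical counts were dropped. Libraries of a group differed by more than counting error (12.9 to 54.6 chi-square units a degree of freedom).

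The count test was the quasi-likelihood test of edgeR 4.0.16 (R 4.3.3) after filterByExpr and TMM, robust, with group as the only term; p-values were adjusted by Benjamini-Hochberg over 18401 genes, with a threshold of 0.05. SE is the log2 fold change over the root of F, and intervals are 95%. Log2 CPM used a prior count of 2. On simulated counts of this comparison (18174 genes) the test recovered 70% of 50 genes changed 1.5-fold and 98% of 50 changed 2-fold, with 16 of 199 calls false; falls of the size reported here were not simulated. Alternatives used DESeq2 1.42.0, limma 3.58.1 (voom with quality weights) and sva 3.50.0, other scalings, filters and covariates, a replicate block and leaving out libraries. All members are named, and of each other list the genes past the threshold or, with none, the 2 of smallest p. Members and lists were chosen with earlier results of these data known. Exon lengths came from GENCODE M21 and promoters from RefSeq (GRCm38.p6).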

Additional observations from a re-analysis of the deposited data

Results flagged for a closer look

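A library was listed here when its gap to the nearest library of its group exceeded Dixon's 95% critical value for 5 samples. Chance marks about 1 in 20 groups, and 6 of 56 gene groups were marked, 4 of them among the 20 groups of the 10 genes. Txnrd2 stood at 44.3 CPM in oxaliplatin replicate 3, against 26.0 in the next library. Prdx6 stood at 262 CPM in oxaliplatin replicate 5, against 236 in the next. Msrb3 stood at 4.29 CPM in oxaliplatin replicate 3, against 3.08 in the next. Txnrd1 stood at 37.7 CPM in vehicle replicate 3, against 57.2 in the next above it. Vehicle replicate 5 was marked for Srxn1 (253 CPM, against 177 in the next) and for Gpx1 (487 CPM, against 389).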

How the results depend on the processing

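The number of the 10 genes called lower was 1, and it was 0 with library totals alone, with 1 surrogate variable, with the erythroid or the neuron marker mean as a covariate, without both libraries numbered 3, and without oxaliplatin replicate 1 and vehicle replicate 5 together (these last 2 settings were chosen after seeing the data). It was 2 in DESeq2, and 0 to 1 when 1 library was left out. With the Schwann cell marker mean the number called lower was 1, Txn2 in place of Txn1 (-0.22, edgeR adjusted p = 0.0636). The number called higher was 0 in every setting. Over all genes 234 were higher and 142 lower. These counts were 509 and 411 in DESeq2, 439 and 365 in limma voom, 363 and 366 with the Schwann cell mean, 41 and 44 with the neuron mean, and 142 and 76 without oxaliplatin replicate 1 and vehicle replicate 5. The lower count was 88 with 1 surrogate variable and 85 without both libraries numbered 3. Leaving out 1 library gave 79 to 343 higher and 34 to 251 lower: 147 and 74 without oxaliplatin replicate 1, 79 and 34 without replicate 4, 80 and 38 without replicate 5, 117 and 77 without vehicle replicate 1, 82 and 41 without vehicle replicate 4, and lower counts of 251 without oxaliplatin replicate 2 and 88 without vehicle replicate 5. The cause of these shifts was not tested.

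Of the 10 genes 8 kept their direction in all 23 alternatives. Txnrd2 turned to -0.0331 with the neuron mean and -0.013 without both libraries numbered 3, and leaving out 1 library gave -0.0498 (without oxaliplatin replicate 3) to 0.2401. Prdx6 turned to 0.0308 with 1 surrogate variable and 0.0336 without oxaliplatin replicate 1 and vehicle replicate 5, and leaving out 1 library gave -0.0827 to 0.016 (without vehicle replicate 5). The adjusted p of Txn1 ranged from 0.0115 to 0.277, with 8 of 23 alternatives past the threshold.

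Same-numbered libraries of the groups deviated together in part, with correlations from -0.04 to 0.21, against -0.15 to 0.08 for libraries of different numbers. Numbers 1, 3 and 5 (0.092, 0.212 and 0.145) lay above every pair of different numbers. In all, 6 of 10 libraries were closest to their own number, which does not show that the numbers pair them. With the replicate block 382 genes were higher and 278 lower, and 3 of the 10 were lower: Txn1 (edgeR adjusted p = 0.0360), Srxn1 (-0.39, 0.00762) and Txnrd1 (-0.26, 0.0387). With the block Gstm1 lost its call (0.0780) and Selenop passed (0.0194). Counts of 1179 or more per gene and library leave little counting error, so the spread between libraries set the precision.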
